A study of Mus musculus with 30 samples.

Results

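Deletion H removes 10.5 Mb of the X chromosome that carries the 129/Sv (*Mus*) genome, chrX:104088048-114560591 (mm10), and leaves the Cast/Ei (*Cast*) copy of the same segment in place. The comparison set the 2 clones of the Deletion H line (genotype *Rnf12*+/-, Deletion H +/-) against 13 libraries of the same library batch from 8 lines that kept both copies of this segment: 1 clone each of Deletion A, Deletion B and Deletion AB, and 2 clones each of Deletion C, Deletion D, Deletion F, Deletion I and Deletion K. All 15 libraries, of 30 in the series, came from female F1 2-1 mouse embryonic stem cells (mESCs) of the cross 129/Sv x Cast/Ei, all heterozygous for a deletion of *Rnf12* (*Rlim* in the annotation) on the *Mus* X, and all derived from the first *Rnf12*+/- line. The cells were grown with serum and LIF on feeder fibroblasts, which were removed by pre-plating before RNA extraction. The study's methods state that every deletion line still holds the neomycin cassette that replaced its segment, so the comparison lines carry the cassette and another heterozygous deletion of their own, on the *Cast* X in Deletion I and on the *Mus* X in the others. Each line rests on 1 or 2 clones, and the borders of the deletions were set by the authors from the allelic reads of these libraries, so the loss of *Mus* reads inside deletion H is not independent of its borders.

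Of the 55240 genes of the table that could be placed on the genome, 143 lay wholly inside the deletion and 2 lay across a border: *Nexmif* at the proximal end and *Klhl4* at the distal end. The 143 deleted genes were 49 protein-coding genes, 69 pseudogenes and 25 others, among them 7 miRNA genes. No read was counted for 58 of them in any of the 15 libraries, 50 had reads but a mean count under 10, and 35 passed this filter and were tested, 26 of them protein-coding. The 23 deleted protein-coding genes under the filter had mean counts of at most 4.33, and 5 of these had no count at all.

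A heterozygous deletion takes 1 of 2 gene copies, and the total RNA of a gene then falls to about the share that the remaining allele made, unless that allele is read more often. Mammalian cells with a single active X transcribe many X-linked genes at a higher rate per copy, which is known as X-chromosome upregulation, whereas female mESCs keep both X chromosomes active until they differentiate. In a hybrid cell, reads that cover a base at which the parental genomes differ tell the alleles apart, so that the *Cast* counts measure the remaining copy directly, and total counts measure the sum.

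The segment lost from the *Mus* X holds the start of *Pgk1*, which encodes phosphoglycerate kinase 1 of glycolysis and has a promoter rich in G and C that is active in most cell types, and the start of *Hmgn5*, which encodes a nucleosome-binding protein. They are shown because *Pgk1* gave the most counts of the deleted genes and *Hmgn5* the largest fall among those that passed the test. The RefSeq sequences (GRCm38.p6) of the 250 bases before each start are given 5′ to 3′ on the gene's strand, with the GC box letters GGGCGG or their reverse complement CCGCCC in capitals. *Pgk1* lies at chrX:106187100-106203699 on the plus strand and its window is chrX:106186850-106187099, and *Hmgn5* lies at chrX:109004534-109013404 on the minus strand with its window at chrX:109013381-109013630. Gene spans are those of GENCODE and windows start from the RefSeq start, which for *Hmgn5* lies inside the GENCODE span.
Pgk1: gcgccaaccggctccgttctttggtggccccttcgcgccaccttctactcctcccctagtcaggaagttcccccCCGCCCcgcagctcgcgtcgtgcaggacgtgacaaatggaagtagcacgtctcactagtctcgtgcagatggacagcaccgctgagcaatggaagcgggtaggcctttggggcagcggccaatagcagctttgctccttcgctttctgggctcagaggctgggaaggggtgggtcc
Hmgn5: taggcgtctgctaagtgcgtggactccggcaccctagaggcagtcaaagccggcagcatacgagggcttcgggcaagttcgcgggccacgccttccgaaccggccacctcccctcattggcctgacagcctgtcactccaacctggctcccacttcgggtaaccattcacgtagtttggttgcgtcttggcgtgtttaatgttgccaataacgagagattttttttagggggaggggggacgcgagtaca
The *Pgk1* window held the GC box letters once and the *Hmgn5* window did not hold them, which says only that these letters are not there. Over the RefSeq table, 32.7% of 32851 such windows held them on either strand, and a promoter entry was found for 24 of the 26 tested protein-coding genes, of which 17 had at least 1 window with these letters. These shares are not alike, because the first counts windows of all genes and the second counts tested genes, some with more than 1 window.

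The deletion also takes 1 copy of miRNA genes, of which 5 of 7 had mature sequences in the RefSeq table. *Mir672* lies within *Nexmif* and *Mir361* within *Chm*, both on the strand of the host gene, and their mature sequences are shown because the total RNA of these hosts was measured, with the seed (bases 2 to 8) in capitals.
mmu-miR-672-5p: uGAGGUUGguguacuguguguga
mmu-miR-672-3p: aCACACAGucacuaucuucga
mmu-miR-361-5p: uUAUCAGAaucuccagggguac
mmu-miR-361-3p: uCCCCCAGgugugauucugauuugu
No seed was shared among these 4. The libraries were made from polyadenylated RNA and all 7 miRNA genes together had 1 count over the 15 libraries, so their levels were not measured.

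The H libraries had 10182006 and 10120704 counts and the others 8816184 to 10680026, of which 12.18% to 12.65% were assigned to an allele. On no chromosome did the median of either H library deviate by more than 0.019 on the log2 scale from the 15 libraries, whereas Deletion I clone 1 was high on chromosomes 1 and 14 (0.53 and 0.55) and Deletion F clone 2 on chromosome 8 (0.38), and counts of calls are also given without these 2 libraries. A change shared by all 15 libraries would not show in these medians. The 2 libraries are called libraries with an extra chromosome below, from these medians alone, and no count of chromosomes was used. On chromosome 12 the *Cast* share of allelic counts was 36.4% and 35.75% in H and 35.5% to 36.2% in the others. The other autosomes of H clone 1 had 47.8% to 52.2%. The cause of this imbalance was not tested. All 9 mESC markers were read in every library, with a summed level of 7107 and 7476 counts scaled to 1000000 per library (CPM) in H and 6258 to 7545 in the others. The 11 feeder markers were all above 0 in every library. They summed to 2303 and 2318 CPM in H and to 1557 to 3280 in the others. Without *Fn1*, which mESCs also make, they summed to 191 and 167 CPM in H and to 143 to 516 in the others, with a median log2 fold change of -0.79 over the list. In bulk RNA, fewer cells of a type and less RNA per cell cannot be told apart. *Rlim* had 13 *Mus* and 590 *Cast* counts in H and 101 and 3672 in the others (its *Mus* copy is deleted in all of these lines), and its total level did not differ detectably (219 and 230 CPM in H, 140 to 377 in the others).

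Total counts inside the deletion fell to about the level of 1 copy. The 49 deleted protein-coding genes together gave 1502 and 1561 CPM in the H clones and 2926 to 3278 CPM in the others (3086 ± 134, SD, n = 13), so H held 49.6% of their mean. *Pgk1* makes up about as much of this as the rest, but without it the value was also 49.6%. In the edgeR quasi-likelihood test on total counts, adjusted by the Benjamini-Hochberg method over 14863 genes, 11 deleted genes were lower in H and none was higher, all 11 protein-coding. The background was 0.114% of all tested genes called lower and 0.0135% called higher, 0.128% in all. Both H clones lay below all 13 other libraries for 18 of the 26 tested protein-coding genes (background 2.18%), and above them for none (background 1.84%). The main fit took every library as independent, so these p-values measure the spread between lines and between clones together. Clones of the same line share a deletion, and the fit did not account for this. The 26 tested protein-coding genes had a median log2 fold change of -1.01, beside -0.02 over all tested genes and -0.03 over the 442 X-linked protein-coding genes outside, and their single values ranged from -3.42 to -0.42.

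Calls rested on depth and on the way the lines were pooled. All 8 members with a mean count of at least 500 passed the test, and these kept 46.0% to 57.3% of the level of the other lines. Among the 15 tested protein-coding members that did not pass, 11 had an unadjusted p under 0.05 (background 7.04% of all genes), and their median mean count was 70.7, against 975 among those that passed. When the clones of a line were summed, so that H was 1 library against 8, no deleted gene passed the test, with a median of the 26 of -1.01 again. With 1 term per line 21 of the 26 passed (background 2.54% called lower), and with DESeq2 16 (background 0.336%). The fit with 1 term per line measures only the spread between clones of a line, so its p-values leave out the spread between lines. Without the 2 libraries with an extra chromosome, 24 genes were called in all and 10 of them were deleted genes, against 19 and 11 with them. Leaving out H clone 1 left 3 calls and H clone 2 left 2, *Pgk1* and *Apool* in both, and without Deletion B, Deletion AB, clone 2 of Deletion D or clone 2 of Deletion K there were 6, 7, 6 and 6.

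**Figure D1:**
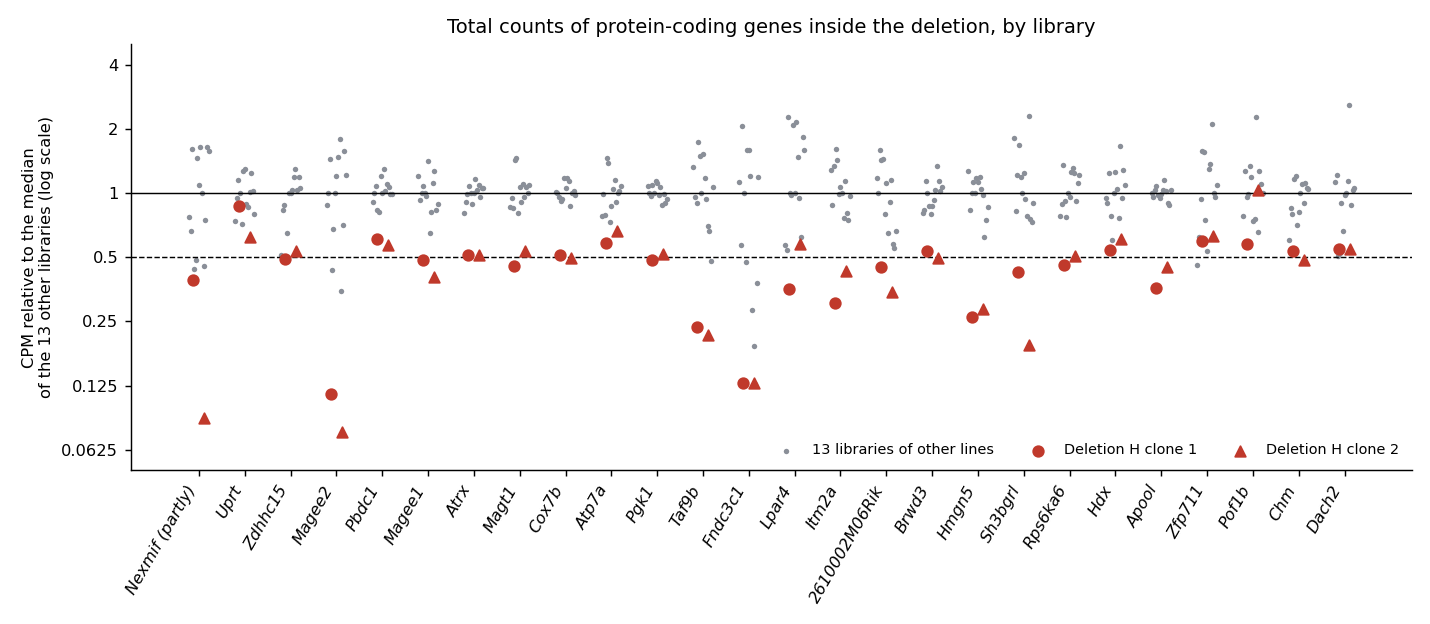
CPM of 25 of the 26 tested protein-coding genes inside the deletion and of the partly deleted *Nexmif*, in order along the chromosome, each divided by the median of the 13 other libraries (log2 axis). Red points are the 2 H clones, grey points the other libraries, the solid line marks the median of the others and the dashed line 0.5. Both H clones lie below every other library for 17 of these 25 genes, and the pairs of H points of *Magee2*, *Taf9b*, *Fndc3c1* and *Hmgn5* lie well under the dashed line.

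Energy metabolism. An enzyme of glycolysis and a subunit of the respiratory chain both came close to 50%. *Pgk1* had 705 and 755 CPM in the H clones, and 1272, 1455 and 1648 CPM as the lowest, median and highest of the others. The groups did not overlap, and H kept 49.6% of the level (95% interval 42.7% to 57.7%; -1.01 on the log2 scale with an SE of 0.10, adjusted p = 8.95e-05). *Cox7b*, a nuclear-encoded subunit of cytochrome c oxidase, had 190 and 185 CPM in H and 324, 372 and 436 CPM in the others. It also stood apart in every library, with 49.5% left (41.9% to 58.5%, adjusted p = 0.000289 by edgeR). *Apool*, a component of the protein complex that shapes the inner membrane of mitochondria, had 13.3 and 16.8 CPM in H and 32.7, 37.1 and 42.6 CPM in the others. It kept 40.5%, and the unadjusted interval of its log2 fold change (-1.58 to -1.03) did not reach -1. In the test for a change per copy, given below, *Apool* did not pass.

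Membrane transport and the handling of metals. *Magt1*, a magnesium transporter and subunit of the oligosaccharyltransferase complex, had 27.6 and 32.4 CPM in H against 49.0, 60.8 and 89.0 CPM, with 47.3% left (edgeR adjusted p = 0.0459). The H clones were the lowest of the 15 libraries. *Atp7a*, the copper-transporting ATPase, did not pass the test (log2 fold change -0.71, SE 0.22, adjusted p = 0.451), although its 21.6 and 24.5 CPM in H also lay below all others (27.1 to 54.2).

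Chromatin and transcription. *Atrx*, a chromatin remodeller that deposits histone H3.3 in heterochromatin, had 204 and 205 CPM in H and 323, 401 and 465 CPM in the others, with 50.9% left (42.9% to 60.4%, edgeR adjusted p = 0.000538). *Brwd3*, a bromodomain and WD repeat protein, kept 52.3% (44.3 and 41.2 CPM against 65.6 to 111, adjusted p = 0.0415). *Hmgn5*, whose start is printed above, had 8.19 and 8.98 CPM in H and 19.4, 31.3 and 39.8 CPM in the others. It kept 27.5% (19.4% to 39.2%), the lowest of the 11 that passed, and its interval lay wholly below a log2 fold change of -1 (log2 fold change -1.86, SE 0.24, adjusted p = 0.00125). *Taf9b*, a paralog of a TFIID and SAGA subunit, had 12 and 11 counts in H, and its level in the others was 2.43, 5.08 and 8.83 CPM. It did not pass (adjusted p = 0.0674), but its interval of -3.19 to -1.28 too lay below -1. The zinc finger gene *Zfp711* (-0.84), the homeobox gene *Hdx* (-0.85) and *Dach2* (-0.93), all of low level, did not pass, and in each the H clones overlapped with other libraries.

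Signalling, trafficking and membrane proteins. *Rps6ka6*, a ribosomal S6 kinase (RSK4) downstream of ERK, had 75.1 and 82.9 CPM in H and 126, 163 and 221 CPM in the others (46.0% left, edgeR adjusted p = 0.0388). *Itm2a*, an integral membrane protein, had 6.09 and 8.58 CPM in H and 14.9, 19.9 and 32.0 CPM in the others (34.2% left, adjusted p = 0.0409). Both genes were lower in the H clones than in any other library. *Chm*, the Rab escort protein that presents Rab GTPases for prenylation and hosts *Mir361*, had 20.4 and 18.6 CPM in H and 23.2, 38.3 and 46.1 CPM in the others, and it did not pass (log2 fold change -0.90, adjusted p = 0.215). The palmitoyltransferase gene *Zdhhc15* (-0.87), the lysophosphatidic acid receptor gene *Lpar4* (-1.49) and *Fndc3c1* (-2.81) did not pass and overlapped with single other libraries, whereas *Sh3bgrl* (-1.93, and -2.61 without H clone 1), which did not pass either, did not overlap. For *Fndc3c1* the other lines themselves ran from 1.09 to 17.7 CPM.

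Remaining members. *Pbdc1*, of which little is known, had 95.5 and 89.6 CPM in H and 128, 158 and 205 CPM in the others (57.3% left, edgeR adjusted p = 0.0380), the highest share left among the 11. *Magee2*, one of the MAGE family genes, was nearly absent in H, with 3 and 2 counts, and 9 counts or more in each of the others (0.919, 2.64 and 4.75 CPM), and it missed the threshold (log2 fold change -3.42, SE 0.70, adjusted p = 0.0674). Its neighbour *Magee1* had 5.39 and 4.49 CPM against 7.23 to 15.7 (log2 fold change -1.18, adjusted p = 0.0816). *Uprt*, a uracil phosphoribosyltransferase homologue, stood at the other end, with 6.39 and 4.59 CPM in H and 5.29, 7.39 and 9.56 CPM in the others (74.6% left, 52.5% to 106%, adjusted p = 0.799), and *Pof1b* kept 72.9% (40.5% to 131%). The uncharacterised *2610002M06Rik* had a log2 fold change of -1.34 (adjusted p = 0.387). The non-coding *5530601H04Rik*, next to *Pbdc1*, kept 56.3% (7.69 and 7.88 CPM in H, 8.26 to 17.9 in the others, adjusted p = 0.321).

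The fold changes of the members showed little relation to place or level. In 3 equal stretches of the deletion, from proximal to distal, the tested protein-coding genes had medians of -1.01 (n = 15), -1.60 (n = 4) and -0.90 (n = 7), and across the 26 genes Spearman's rho of the log2 fold change was 0.01 with position and 0.10 with mean count. These genes share the same libraries and are not independent replicates.

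When the loss of 1 copy was put into the fit of the deleted genes, so that the test asked for a change per copy, no protein-coding member passed in either direction (background 0.0269% called higher and 0.0269% lower). The intervals of the total log2 fold change say how far this goes. For 18 of the 26 genes the interval held -1 and excluded 0, for 4 (*Hmgn5*, *Magee2*, *Taf9b* and *Apool*) it lay below -1, for 1 (*Uprt*) above -1, and for 3 (*Zfp711*, *Pof1b* and *Dach2*) it held both. With 1 term per line, *Hmgn5* (-0.85, adjusted p = 0.0138) and *Magee2* (-2.36, adjusted p = 0.0165) were lower per copy in edgeR, and no protein-coding member was higher. Over all 14863 genes tested, that fit called 354 lower and 489 higher.

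The allelic counts separated the copies. Over the deleted protein-coding genes without *Pgk1*, the H clones had 7 and 9 *Mus* counts, against 430 to 614 in the others. The *Mus* share of allelic counts was 1.56% (Wilson 95% interval 0.757% to 3.18%, counting error only) and 1.97% (1.04% to 3.71%) in H and 48.8% to 55.3% in the others. Outside the deletion, the share of X-linked protein-coding genes was 52.1% and 51.6% in H and 50.8% to 53.3% in the others. Genes inside a line's own deletion were left out of its share. The 16 *Mus* counts of both H clones fell on 8 genes, with at most 3 in 1 clone. *Cast* counts inside the deletion were 442 and 447 in H and 347 to 570 in the others. Scaled to 1000000 autosomal *Cast* counts this was 756 and 767 in H and 824 ± 82.0 (SD, n = 13; 682 to 941) in the others, a mean of 92.5%, so the H clones lay within the spread of lines that kept both copies.

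**Figure D2:**
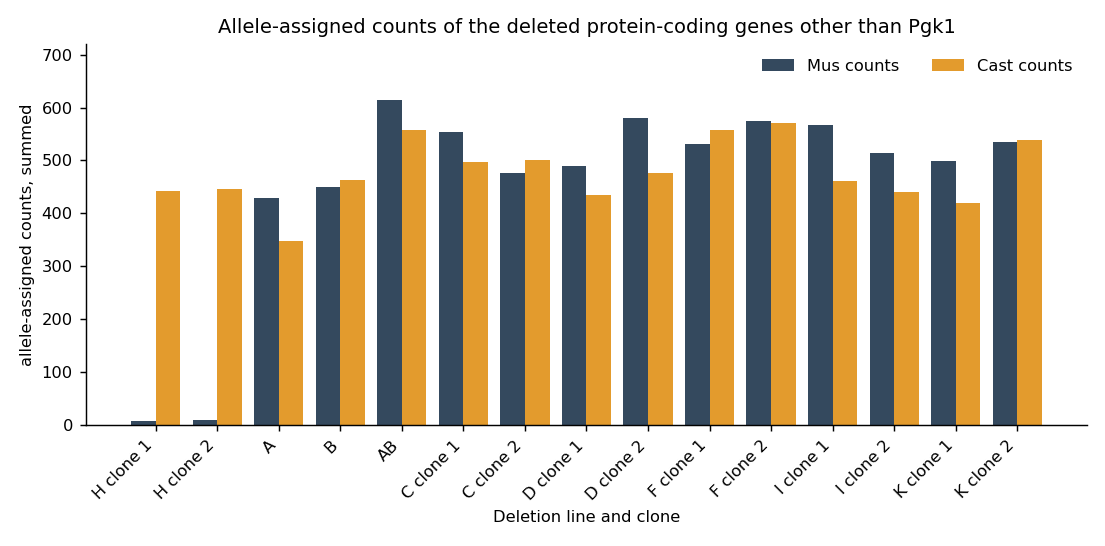
Summed *Mus* (dark) and *Cast* (orange) counts of the deleted protein-coding genes other than *Pgk1* in each library, as bars from 0. The H clones have 7 and 9 *Mus* counts and 442 and 447 *Cast* counts, and the other libraries have 430 to 614 *Mus* and 347 to 570 *Cast* counts.

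Gene by gene, 9 deleted genes had enough *Cast* counts for a test, and none passed (edgeR, 7872 genes tested, background 0.0% called; DESeq2 also called none). At an unadjusted p under 0.05 there was 1 (background 4.60%), *Hmgn5*, at -0.999 on the log2 scale (SE 0.45, adjusted p = 0.998). The other 8 ranged from -0.29 to 0.41, and the 9 had a median of -0.08 beside -0.03 over all genes tested. A remaining allele that made up for the lost one would have a log2 fold change of 1. For 8 of the 9 genes the 95% interval ended below 1. For *Atrx*, with 146 and 147 *Cast* counts in H and 125 to 216 in the others, it ran from -0.56 to 0.06. For *Rps6ka6* (78 and 75 against 56 to 113) it ran from -0.51 to 0.28, and for *Brwd3* (45 and 38 against 30 to 61) from -0.57 to 0.41. The upper ends were 0.89 for *Pbdc1*, whose 54 and 62 *Cast* counts compare with 22 to 62, 0.31 for *Magt1* and 1.04 for *5530601H04Rik*, so that for the last a doubling lay within the error. For 8 of the 9 genes, all but *Hmgn5*, the interval held 0 and reached above it. For these, the test cannot tell a rise up to the upper end of the gene's interval from none. That end differed between genes, from 0.06 for *Atrx* to 1.04 for *5530601H04Rik*. The study lists a part of the expressed genes of this deletion as upregulated. Its analysis within deletions used total levels corrected for copy number, with *Rnf12*+/- cells without these deletions as reference. Measure and reference thus differ from those of this test on *Cast* counts. The study also reports that genes upregulated in cells with a single X reached similar levels within the deletions.

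*Pgk1* is a separate case, because its allelic counts did not follow its total. It had 0 *Mus* counts in both H clones, but also only 0 to 4 in the lines with both copies, beside 226 to 364 *Cast* counts there. Its *Cast* counts were 281 and 335 in H, a log2 fold change of -0.003 (95% interval -0.31 to 0.31). As a percentage of its total counts, *Cast* counts were 3.98% and 4.43% in H and 1.81% to 2.35% in the others, without overlap. In libraries of another batch with a single X, read as single reads, the cells with only the *Mus* X had 244 and 200 *Mus* counts of *Pgk1* and those with only the *Cast* X had 4 and 2. Why lines with both copies showed almost no *Mus* counts of this gene was not tested.

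How much total RNA a gene lost went partly with how much the *Cast* allele made in lines with both copies. For the 19 members other than *Pgk1* with at least 50 allelic counts over the 13 libraries, the median *Cast* share there was 47.4% and the median level left in H was 47.3%. *Taf9b* had a *Cast* share of 28.7% (87 allelic counts) and kept 21.2%, *Itm2a* had 40.5% and kept 34.2%, and *Uprt* had 56.7% and kept 74.6%. Across these genes Spearman's rho was 0.60 and Pearson's r 0.57, over the same 15 libraries. The *Cast* share lay within the interval of the level left for 17 of the 19. The exceptions were *Hmgn5*, whose *Cast* share of 41.6% lay above the 27.5% left, and *Chm*, whose share of 35.4% lay below the 53.4% left. Many intervals were wide (3.50% to 58.2% for *Fndc3c1*, 34.8% to 86.3% for *Zdhhc15*) and also held 50%. Such intervals cannot tell a gene that followed its *Cast* share from one that fell to 50%. The *Cast* share and the level left both used the 13 other libraries, so they are not independent. *Magee2*, with too few allelic counts for this set, had a *Cast* share of 15.2% (33 allelic counts) and kept 9.33%.

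**Figure D3:**
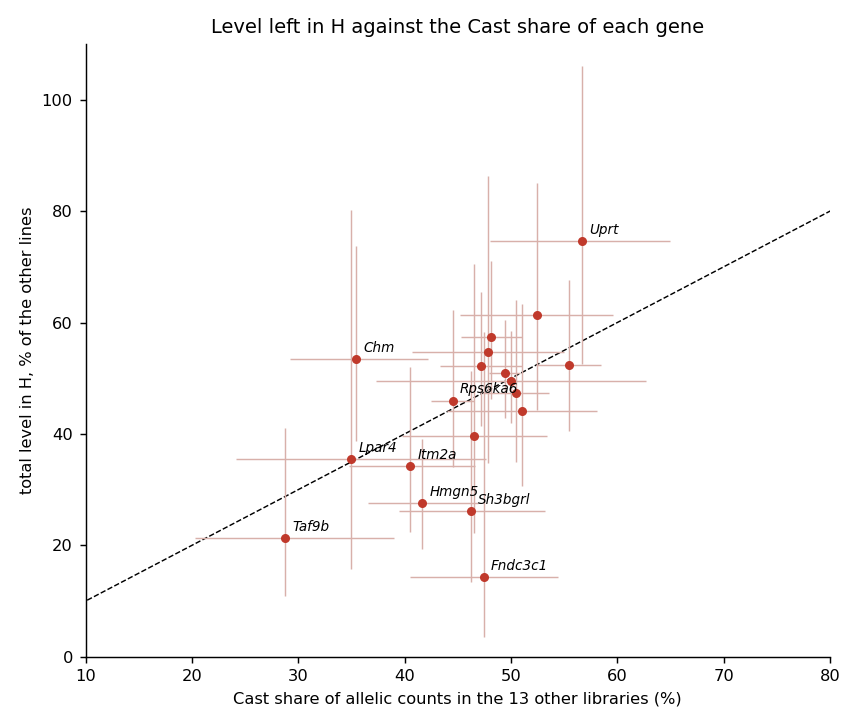
For each of 19 deleted genes, the *Cast* share of allelic counts in the 13 other libraries (horizontal axis, percent, with Wilson 95% intervals) against the total level left in H as a percentage of the other lines (vertical axis, with 95% intervals). The dashed line marks equal values, on which a gene falls when the *Cast* allele gives as much RNA in H as in the other lines. Most intervals cross it, *Taf9b* lies low on both axes and *Hmgn5* lies below the line.

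Pseudogenes in the segment did not follow the protein-coding genes. Of 8 that were tested, none passed on total counts, their median log2 fold change was -0.01, and the 69 pseudogenes together gave 167 and 163 CPM in H and 146 to 176 in the others. *Vcp-rs*, a processed pseudogene, had 123 and 121 CPM in H and 102 to 129 in the others, 103% of their level. *Gm9200* had 8.89 and 10.4 CPM in H and 5.27 to 9.87 in the others, and its *Mus* counts were 11 and 19 in H and 13 to 21 in the others. Per copy, *Vcp-rs* (log2 fold change 1.04) and *Gm9200* (1.24) were therefore the 2 deleted genes called higher (edgeR adjusted p = 2.03e-05 and 0.0105). A processed pseudogene is a copy of another gene's mRNA, and reads counted on it can come from near-identical sequence elsewhere, so these values are uncertain as measures of the deleted locus.

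Near the borders, neither the gene across the proximal end nor the nearest tested protein-coding genes outside passed the test. *Nexmif*, a neuronal gene read from the minus strand, lies across the proximal border, so the deletion takes its start and leaves its end. It had 22.8 and 5.09 CPM in H and 25.6, 58.0 and 95.7 CPM in the others (log2 fold change -2.12, SE 0.62, edgeR adjusted p = 0.376), with 0 *Mus* counts in either H clone and 7 to 40 in the others. The H clones were far apart, and both lay below all others. Without clone 1 the log2 fold change of *Nexmif* was -3.58, and without clone 2 it was -1.42. Just outside, *Rlim*, 0.107 Mb from the border, had a log2 fold change of 0.09 and *Tsx* (0.663 Mb) had 0.31. On the distal side the next tested protein-coding genes were *Ube2dnl1* (0.344 Mb, -0.66), *Nap1l3* (7.83 Mb, -0.46) and *Diaph2* (15.2 Mb, 0.40), of which none passed. In *Diaph2*, a formin of the actin cytoskeleton, both H clones (67.6 and 74.2 CPM) lay above all others (28.0 to 59.3), with an adjusted p of 0.822. These 3 distal genes lie within the segment that Deletion I lacks on the *Cast* X, and the 28.0 CPM of *Diaph2* came from clone 1 of that line, which has 1 copy.

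Further out along the X few genes were called. Of 553 tested genes on the X outside the deletion, 1 passed (*Slc38a5*), 46 had an unadjusted p under 0.05 (background 7.04%), and the median log2 fold change was -0.04. In the 10 Mb before the proximal border, 58 protein-coding genes had a median of -0.06. Past the distal border, 2 had a median of -0.56 within 10 Mb, and 66 had -0.02 at 10 to 30 Mb. In these bins 0 were called. On *Cast* counts none of 227 X-linked genes outside passed, 18 had an unadjusted p under 0.05 (edgeR, background 4.60%), DESeq2 called none, and the median was -0.02.

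**Figure D4:**
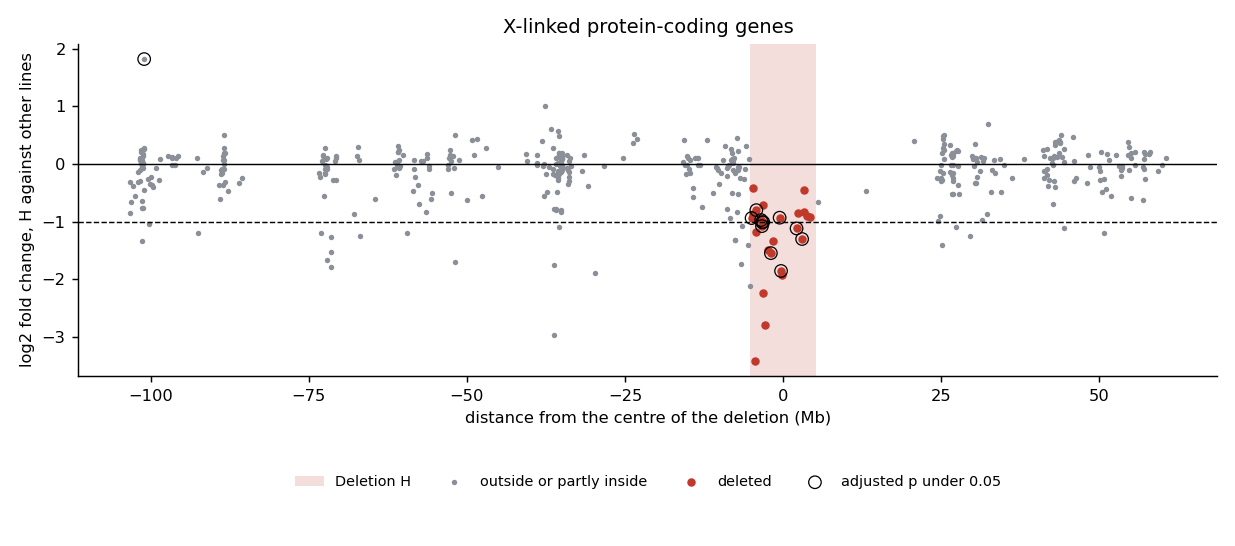
Log2 fold change of total counts in H against the other lines for each tested X-linked protein-coding gene, by distance from the centre of the deletion in Mb. Red points are the deleted genes, grey points all others, circles mark an adjusted p under 0.05, the shaded band is the deletion and the dashed line marks -1. The deleted genes lie below 0 with a median of -1.01, and the 442 genes outside scatter around 0 with 1 circle, *Slc38a5*.

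In the rest of the genome 8 genes passed the test, 6 lower and 2 higher, all at low level. *Slc38a5*, an amino acid transporter of the system N family at chrX:8271133-8280179, far from the deletion, had 11.6 and 10.3 CPM in H and 0.741, 3.03 and 4.76 CPM in the others (log2 fold change 1.82, SE 0.28, edgeR adjusted p = 0.00906). The lowest values of the others were those of Deletion AB (0.741 CPM) and Deletion A (0.878 CPM), which have 1 copy of this gene, and the lines with both copies had 2.04 to 4.76 CPM. The higher level was present in both H clones, and it had 28 *Mus* and 10 *Cast* counts in H. *Greb1l* on chromosome 18 had the larger value (3.12), but it came from clone 2 alone, with 67.4 CPM against 1.90 in clone 1 and 1.42 to 6.61 in the others, and without clone 2 its log2 fold change was -1.07.

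The 6 genes that fell were lower in both clones than in all 13 libraries, as were 2.18% of all tested genes. *Vwa3b* on chromosome 1 had 4.69 and 2.69 CPM against 8.39, 11.9 and 14.3 CPM (-1.68, edgeR adjusted p = 0.00526). *Pdcl2*, a phosducin-like gene on chromosome 5, had 0.699 and 0.599 CPM, that is 7 and 6 counts, against 2.45 to 8.10 CPM (-3.08, adjusted p = 0.00598). *Bmp6*, a secreted ligand of the BMP family on chromosome 13, had 3.10 and 2.89 CPM against 7.22, 10.6 and 15.8 CPM (-1.88, adjusted p = 0.0112). *Cacng4*, a calcium channel auxiliary subunit on chromosome 11, had 1.90 and 1.40 CPM against 3.78 to 8.45 (-1.94, adjusted p = 0.0128). *Fam183b* on chromosome 11 (-3.22, adjusted p = 0.0388) and *Mcmdc2*, a meiotic MCM-domain gene on chromosome 1 (-1.74, adjusted p = 0.0436), were the others. *Mcmdc2* had 0.599 and 1.80 CPM in the H clones, against 2.73 to 5.16 CPM, and its log2 fold change was -1.16 without clone 1 and -2.72 without clone 2. Leaving out H clone 1 kept only *Vwa3b* and *Greb1l* of the 8 past the threshold, and leaving out H clone 2 none. The number of genes called outside the deletion was 14 without the 2 libraries with an extra chromosome, 5 without Deletion B, clone 1 of Deletion F or clone 2 of Deletion K, and 13 and 21 without clone 1 and clone 2 of Deletion I.

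**Figure D5:**
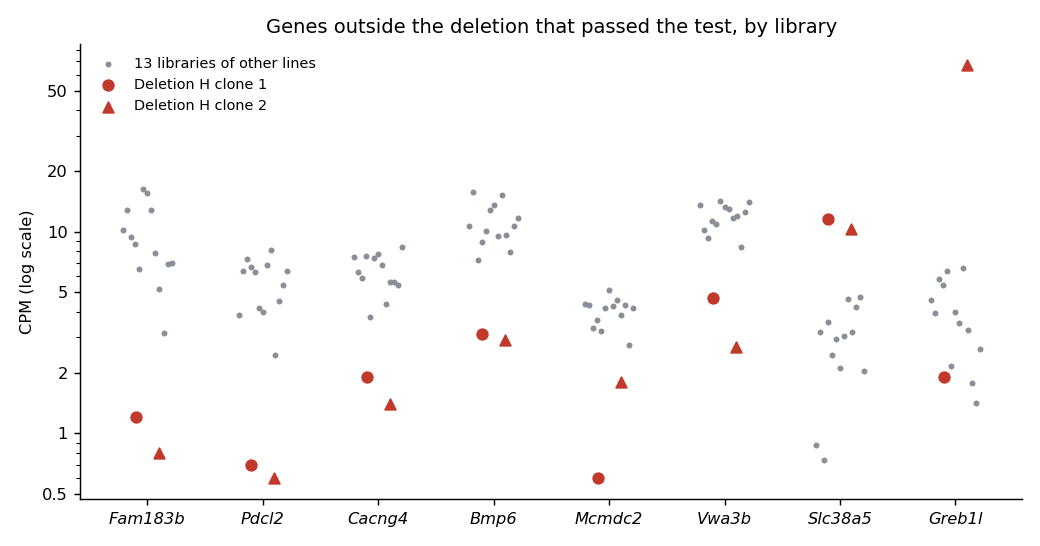
CPM (log axis) of the 8 genes outside the deletion that passed the test, in the 2 H clones (red) and the 13 other libraries (grey). In 6 genes both H points lie below all grey points, in *Slc38a5* both lie above, and in *Greb1l* clone 2 lies at 67.4 CPM and clone 1 at 1.90 CPM among the others.

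The partners of the deleted genes were examined through 10 lists of their pathways or complexes and 11 lists of cell states, chosen with earlier results of these data known. Of their 315 tested genes outside the deletion edgeR called none, DESeq2 called 1 (background 0.377%) and 37 had an unadjusted p under 0.05 (background 7.04%). With 1 term per line 50 passed (background 5.84%).

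Among the partners of *Pgk1*, 23 genes of glycolysis were tested and none passed, with a median log2 fold change of 0.00069. *Pfkp*, a phosphofructokinase subunit, had 1015 and 1001 CPM in H and 608, 711 and 833 CPM in the others (0.50, SE 0.10, edgeR adjusted p = 0.0816; DESeq2 adjusted p = 0.00828). *Hk2*, a hexokinase, had 737 and 740 CPM against 347 to 701 (0.41, adjusted p = 0.727). The 23 other subunits and assembly factors of cytochrome c oxidase, the complex of *Cox7b*, ranged from -0.33 to 0.17, and the 19 tested genes of heterochromatin and *Atrx* partners from -0.23 to 0.20, with no unadjusted p under 0.05 in either list. The same held for the 11 genes of the oligosaccharyltransferase (-0.21 to 0.10) and the 10 of the mitochondrial inner membrane complexes (-0.15 to 0.07). Among the 13 TFIID subunits, the partners of *Taf9b*, none passed, and *Taf8* (85.3 and 83.4 CPM against 59.2 to 77.3) and *Taf13* (12.3 CPM in clone 1 against 6.24 to 11.7) were above all others, with adjusted p of 0.537 and 0.785. In iron handling (21 genes, median -0.03), *Tfrc*, the transferrin receptor, had 508 and 507 CPM against 270 to 456 (0.42, adjusted p = 0.470). In copper handling (11 genes, median -0.05), the metallothionein gene *Mt2* had 231 and 270 CPM against 336 to 809 (-1.07, adjusted p = 0.355). The lists for *Chm* (11 genes, median 0.01) and *Uprt* (11 genes, median 0.05) gave no call, with *Umps*, the enzyme that makes UMP, at -0.46 (adjusted p = 0.437).

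Of the lists of cell states, naive pluripotency (20 genes, median 0.09), formative and primed state (16, -0.04), primitive endoderm (14, -0.18), MAPK feedback (16, 0.23), p53 targets (15, 0.03) and DNA methylation machinery (13, 0.15) gave no call, and of the 20 genes of the 2-cell-like state 3 were tested (median -0.36). *Pou5f1* (0.10), *Nanog* (0.02) and *Esrrb* (0.25), transcription factors of the stem cell state, did not pass, nor did *Xist* (1.70 and 0.998 CPM against 0.204 to 9.67). Larger medians were found for methylation-sensitive germline genes (14 genes, -0.94, 7 with an unadjusted p under 0.05, all lower), the *Rhox* cluster (4, -1.60, 3 lower), feeder fibroblast genes (20, -0.78, 2 lower) and imprinted genes (30, -0.30, 7 lower), where 4.58% of all genes were lower at an unadjusted p under 0.05. The *Rhox* cluster lies within the segment that Deletion C lacks on the *Mus* X. None of these genes passed, and in the first 3 lists no gene had both H clones below all others. Of the imprinted genes *Grb10* (14.0 and 12.9 CPM against 17.4 to 66.1), *Cdkn1c* (3.79 and 4.29 against 4.35 to 12.8) and *Gab1* (59.4 and 85.0 against 85.6 to 180) were below all others (background 2.18%). The sum of the 11 feeder markers was not low in these H clones (2303 and 2318 CPM, with a median of 2162 CPM in the others). Without *Fn1* it was 191 and 167 CPM, below the median of the others (275 CPM) but within their range of 143 to 516 CPM. The part of feeder RNA in these values was not tested.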

How the data were processed

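Per the study's methods and the submitters' processing notes, the authors used Trim Galore 0.6.7 for trimming, HISAT2 2.2.1 for alignment to a version of mm10 in which bases that differ between the parental genomes were masked, SNPsplit to assign reads to alleles, and SAMtools 1.10 to merge the files. The deposited values are raw counts per gene on exons (paired reads, stranded mRNA libraries), for all reads, for *Mus* reads and for *Cast* reads. The methods name featureCounts and the processing notes HTSeq 0.12.4 as the counter.

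Positions, gene types and exon lengths came from GENCODE M21 (GRCm38). Genes with a mean count of at least 10 over the 15 libraries were tested with edgeR 4.0.16 (quasi-likelihood, R 4.3.3): H against the 13 others, TMM factors of autosomal genes, an offset for the copy number of X-linked genes inside the comparison lines' own deletions, and Benjamini-Hochberg adjustment at 0.05. CPM are counts divided by the TMM-scaled library size and multiplied by 1000000. Intervals are at 95%. The fit per copy added an offset for the deleted genes in H. The *Cast* fit left out the segment of Deletion I, whose *Cast* copy is deleted. The steps were tested on simulated data. Alternatives were DESeq2 1.42.0, other size factors and filters, other models of lines, the clone number as a block, and each library left out.

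Members and gene lists were chosen with earlier results of these data known. Genes named are the protein-coding genes inside the deletion with a mean count of at least 10, the 3 nearest tested protein-coding genes on each side, up to 10 called rises and 10 falls outside, called members of the lists, and *Rlim*, *Xist*, *Pou5f1*, *Nanog* and *Esrrb*. Other list genes, pseudogenes and *Greb1l*, whose groups overlapped, were picked once their values were known. Results of 2 genes are not reported here by name. Other libraries of the series were not used here except where stated, nor were levels of miRNAs.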

Additional observations from a re-analysis of the deposited data

How the results depend on the processing

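All 26 tested protein-coding deleted genes stayed below 0 under every alternative that tested them, with medians between -1.05 and -0.98, but the number of calls moved. On total counts 19 genes were called, 56 with DESeq2, 868 with 1 term per line and 1 with clones summed per line; for the deleted genes 11 became 22 and 0 under the last 2, and for genes outside the deletion 8 became 40, 846 and 1, and 14 without the 2 libraries with an extra chromosome, which was chosen after seeing the data. Per copy, 2 deleted genes became 4 (DESeq2), 7 (1 term per line) and 1 (clones summed). The X-linked genes outside, total and *Cast* counts together, went from 1 to 0 at a mean count of at least 50 or with clones summed, and to 54 with 1 term per line. With 1 library left out at a time these counts ran from 2 to 33, 2 to 13, 0 to 21, 1 to 2 and 0 to 1 in the same order; a lone H clone was assumed to vary like the others. On *Cast* counts of deleted genes there were 0 calls throughout. The clone number as a block gave 15 calls in all and 8 deleted genes, and the numbers did not pair the lines (differences between clones correlated over 0.1 in 7 of 15 pairs of lines). Directions that turned were those of *Greb1l* without H clone 2 (-1.07 to 4.07 with 1 library left out), and on *Cast* counts of *Brwd3* (-0.19 to 0.047 with 1 library left out, 0.019 without the 2 libraries with an extra chromosome) and of *Pgk1*, near 0 in all fits (0.0097 with TMM factors of all genes, 0.0079 with median-ratio factors, 0.027 without a filter, 0.00027 with the block, 0.0026 with clones summed, 0.055 with total library sizes, and -0.12 to 0.13 with 1 library left out). The cause was not tested. Depth limits the allelic tests to 9 deleted genes.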
